A study of Mus musculus with 3 samples.

Results

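Metallothioneins are small, cysteine-rich proteins that bind zinc and copper. Mt1 and Mt2 are expressed in most tissues and abundantly in liver, and they are induced by zinc through the transcription factor Mtf1, by glucocorticoids, by interleukin-6 through Stat3 and by oxidative stress. Mt3 is best known from brain, where it was first described as a growth inhibitory factor for neurons. Mt4 is known from stratified squamous epithelium, which in the mouse also lines the forestomach. The 4 mouse genes Mt1, Mt2, Mt3 and Mt4 were taken by gene name from the array files. They had 6 of the 41534 gene spots on each array and were 4 of the 27677 gene names on the design, with 2 probes each for Mt1 and Mt4 and 1 probe each for Mt2 and Mt3.

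The study set tumours of liver, stomach and lung from mice that carry a transgene for the DNA-editing enzyme AID (activation-induced cytidine deaminase) beside other tissue on 2-colour Agilent mouse arrays. In liver and stomach, tumour tissue was set beside nontumour tissue of an AID transgenic mouse that had developed the tumour, so both channels carried the transgene. In lung, tumour tissue of an AID transgenic mouse was paired with normal lung from a wild-type animal, so the genotype and the tissue state cannot be told apart. Each organ had 1 array, with no replicate and no dye swap, and the promoter of the transgene, the strain, the age and the number of animals are not given in the sources used here. No test between tissues was therefore made, a difference of at least 2-fold was used as a rule of size, and errors are the SD between probes of a gene or the scanner software's error of 1 spot, both of which cover measurement only.

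The direction of the ratio is not settled. The labels put the tumour in the green channel (Cy3) and the nontumour or wild-type tissue in the red channel (Cy5). The authors' deposited table instead lists Cy5-high spots under headings for genes up in the tumours, at all spots of its 3 up lists, and Cy3-high spots under its 3 down lists. By the table's headings Cy5 would be the tumour, and by the labels Cy3 would be. Every ratio is log2 of Cy5 over Cy3, named by channel, so that a negative value means more signal in Cy3.

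Median raw signals were 152 in Cy5 and 180 in Cy3 on the liver array, and 163 in Cy5 and 171 in Cy3 on the stomach array. At least 82.3% of gene spots were well above background in each channel. All 6 metallothionein spots were well above background in both channels on both arrays. Hepatocyte markers had median raw signals of 21900 in Cy5 and 17500 in Cy3 on the liver array, and all 6 measured ones were well above background in both channels, while albumin was saturated. Gastric gland markers had median raw signals of 2385 in Cy5 and 23950 in Cy3 on the stomach array. Of the 8 measured ones 6 were at least 2-fold Cy3-high, as were 1.41% of all genes measured there, and the list median was -4.15.

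The 4 genes lie side by side on mouse chromosome 8, in the order Mt4, Mt3, Mt2 and Mt1 over 43.1 kb, all on the plus strand, in RefSeq's annotation of build GRCm38.p6. The windows of 250 bases before each start are shown because 3 of the 4 neighbouring genes were Cy3-high by at least 2-fold on at least 1 stomach probe and the other was not. Capitals mark matches to the core of the metal response element bound by Mtf1, searched as TGCACNC and TGCGCNC on both strands.
Mt1: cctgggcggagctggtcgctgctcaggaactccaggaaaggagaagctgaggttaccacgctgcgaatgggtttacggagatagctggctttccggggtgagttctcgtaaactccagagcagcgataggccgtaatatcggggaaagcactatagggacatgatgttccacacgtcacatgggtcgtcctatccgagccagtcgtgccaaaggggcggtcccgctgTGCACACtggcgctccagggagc
Mt2: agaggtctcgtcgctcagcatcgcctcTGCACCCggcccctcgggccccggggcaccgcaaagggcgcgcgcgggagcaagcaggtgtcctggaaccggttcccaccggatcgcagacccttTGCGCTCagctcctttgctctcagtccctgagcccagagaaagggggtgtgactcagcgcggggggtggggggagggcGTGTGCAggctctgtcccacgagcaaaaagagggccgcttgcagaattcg
Mt3: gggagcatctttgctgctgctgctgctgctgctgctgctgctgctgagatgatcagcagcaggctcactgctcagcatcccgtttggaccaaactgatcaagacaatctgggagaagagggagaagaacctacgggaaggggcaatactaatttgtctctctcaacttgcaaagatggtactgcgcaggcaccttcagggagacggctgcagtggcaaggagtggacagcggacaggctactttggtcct
Mt4: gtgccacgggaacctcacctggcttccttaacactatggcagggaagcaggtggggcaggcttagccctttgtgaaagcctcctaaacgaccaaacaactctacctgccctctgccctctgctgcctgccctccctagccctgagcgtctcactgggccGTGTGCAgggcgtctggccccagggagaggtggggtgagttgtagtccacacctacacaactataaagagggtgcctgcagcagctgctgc
The sequences are RefSeq's, 5′ to 3′ on the plus strand, at chr8:94178839-94179088 for Mt1, chr8:94172368-94172617 for Mt2, chr8:94152357-94152606 for Mt3 and chr8:94136954-94137203 for Mt4. The Mt1 window held 1 match, the Mt2 window 3, the Mt4 window 1 and the Mt3 window none. Of 32851 mouse windows of the same length, 21.41% held at least 1 match and 1.26% held 3 or more.

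RefSeq's gene span of Mt1 begins at position 94178883, inside the Mt1 window, so the window depends on which annotated start is used. In the 50 bases after the starts used here, Mt1 had 2 further matches, Mt2 and Mt3 had 1 each and Mt4 had none. The Mt2 window also held a match to TGACNNNGC, the core of the antioxidant response element, 79 bases before the start, as did 10.16% of all windows. The Mt4 window held a TATAAA, 30 bases before the start, as did 12.37% of all windows, and none of the other 3 metallothionein windows held one. After the starts only metal response elements were counted, so these windows cannot show whether the Mt1 promoter lacks a TATAAA. The window counts also do not rank the promoters of Mt1 and Mt2. A match is a run of letters only, and no binding was measured.

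Mt1 and Mt2, the broadly expressed members, were Cy3-high on the stomach array in 2 of their 3 probes by at least 2-fold, and neither was past 2-fold on the liver array where it could be measured. Mt4 was Cy3-high on the stomach array by 7.76-fold, the gene mean of its 2 probes. On the liver array Mt4 was at 1.03-fold, with a mean scanner error of 1.52 on the log2 scale. A change in liver of the size of that error could not have been seen. Mt3 stayed within 1.15-fold on both arrays. Of all genes measured in liver, 0.152% passed 2-fold towards Cy5 and 0.0703% towards Cy3. Of all genes measured in stomach, 0.873% passed it towards Cy5 and 1.41% towards Cy3. Without the loess curve the stomach counts turned round, with 1017 genes past 2-fold towards Cy5 and 235 towards Cy3, against 221 towards Cy5 and 358 towards Cy3 with it. By gene means, Mt2 and Mt4 were among the 358, Mt2 only with the loess curve (-0.88 without it), and Mt1 and Mt3 were not. No metallothionein with a liver ratio was past 2-fold on the liver array. Fewer cells of a type and less RNA per cell cannot be told apart in these bulk tissues.

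**Figure D1:**
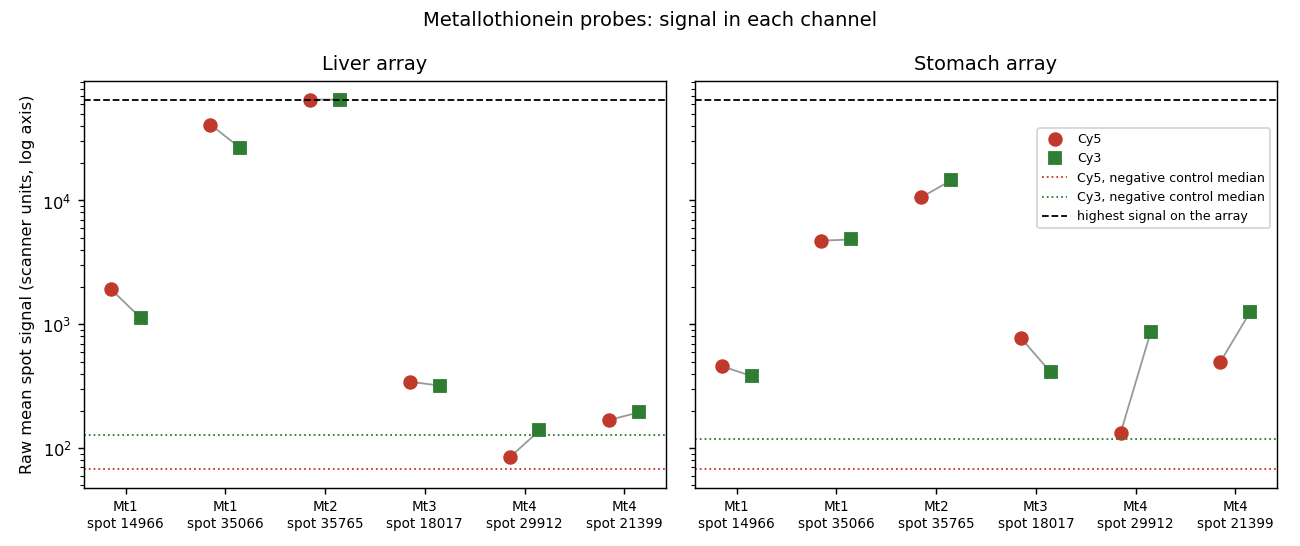
Raw mean signal of the 6 metallothionein spots in Cy5 and Cy3 on the liver and stomach arrays, on a log axis, with dotted lines at the median of the negative control spots per channel and a dashed line at the highest signal on the array. Mt2 meets the dashed line in both liver channels, and on the stomach array the Mt4 spot 29912 has 133 in Cy5 and 859 in Cy3.

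The brighter Mt1 probe, at spot 35066, had a raw signal of 41000 in Cy5 and 26500 in Cy3 on the liver array and of 4740 in Cy5 and 4840 in Cy3 on the stomach array. After normalization its log2 ratio was -0.05 in liver (scanner error 0.16) and -1.38 in stomach (scanner error 0.19), a 2.60-fold excess in Cy3. The channels thus had nearly equal raw signals in stomach, and the excess appeared once the ratio was set against spots of like brightness. The loess curve, which takes out the trend of the ratio with brightness, moved this spot by -0.93, and centring on the array's median alone gave -0.45.

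The dimmer Mt1 probe, at spot 14966, had 1930 in Cy5 and 1130 in Cy3 on the liver array, and 460 in Cy5 and 382 in Cy3 on the stomach array. Its log2 ratio was 0.22 in liver (scanner error 0.17) and -0.38 in stomach (scanner error 0.22). Both Mt1 probes were below 0 in stomach, but only the brighter one by 2-fold, and centring on the median alone put the dimmer one at 0.06. Their gap of 0.999 on the log2 scale was equalled or exceeded at 2.995% of the 8047 genes with several probes on that array. The mean of the 2 probes was -0.88 in stomach (SD 0.71 between probes), which is under 2-fold, and taking the brightest probe alone puts Mt1 past it. In liver the mean was 0.09 (SD 0.19). The probes start 167 bases apart, at positions 92768988 to 92769047 for spot 14966 and 92769155 to 92769214 for spot 35066 of chromosome 8, as the array files give them without naming a build.

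Mt2 was the metallothionein with saturated spots. On the liver array its probe, at spot 35765 (positions 92762515 to 92762574), had 65200 in Cy5 and 65300 in Cy3, with 27 of 27 pixels saturated in Cy5 and 16 of 27 in Cy3. No liver ratio of Mt2 is therefore given. The scanner software's own log2 ratio of that saturated spot was -0.63 (error 0.17). Saturation in both channels was found at 16 gene spots of the liver array, and none of them was in the authors' liver lists although all 16 had a scanner p-value under 0.01.

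On the stomach array Mt2 had 10600 in Cy5 and 14500 in Cy3, with no saturated pixel. Its log2 ratio was -1.97 (scanner error 0.22), a 3.92-fold excess in Cy3, and it ranked 101st from the lowest of 25322 genes. The loess curve moved this spot by -1.096, so centring on the median alone left -0.88, which is under 2-fold. A correction chosen after the data were seen set each spot against the 100 gene spots nearest in brightness. It gave -1.94 for Mt2, with 1 of the 100 nearest spots lower, and -1.34 for the brighter Mt1 probe, with 6 of 100 lower. Only 129 gene spots of the stomach array were brighter than Mt2.

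Mt3, the brain member, had 344 in Cy5 and 320 in Cy3 on the liver array and 776 in Cy5 and 409 in Cy3 on the stomach array. Its log2 ratio was -0.10 in liver (scanner error 0.24) and 0.20 in stomach (scanner error 0.19). Both were near the error of a single spot, and 82.3% of stomach genes were at or below Mt3. Centring on the median without the loess curve gave 0.13 in liver and 0.71 in stomach. The probe, at spot 18017, lies at positions 92743071 to 92743130. Of 7 markers of neurons, glia and endocrine cells, 1 was at least 2-fold Cy5-high on the stomach array (S100b, 1.15) and 1 was Cy3-high (Chga, -3.73). Over all genes measured there, 0.873% were Cy5-high and 1.41% Cy3-high. The part of these markers in the Mt3 value was not tested.

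Mt4, the squamous epithelium member, was dim on the liver array, with 169 in Cy5 and 195 in Cy3 at spot 21399 and 84.1 in Cy5 and 139 in Cy3 at spot 29912. Negative control spots of that array had medians of 67.6 in Cy5 and 127 in Cy3. The liver ratios were -0.04 and -0.05, with scanner errors of 0.53 and 2.51, so a change in liver of the size of those errors could not have been seen. On the stomach array spot 21399 had 497 in Cy5 and 1260 in Cy3, and spot 29912 had 133 in Cy5 and 859 in Cy3. The negative control medians there were 68.4 in Cy5 and 119 in Cy3, so the Cy5 signal of spot 29912 was low.

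The stomach log2 ratios of Mt4 were -2.34 at spot 21399 (scanner error 0.25) and -3.58 at spot 29912 (scanner error 0.40), 5.05-fold and 11.9-fold excesses in Cy3. The gene mean was -2.96 (SD 0.88 between probes) and ranked 40th from the lowest of 25322 genes. The 2 probes share nearly all of their listed span, 92727283 to 92727821 and 92727299 to 92727837, and start 16 bases apart, so they are not independent readings. The constant of 50 added to all signals pulls ratios of dim spots towards 0: without it the value of spot 29912 was -4.46.

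**Figure D2:**
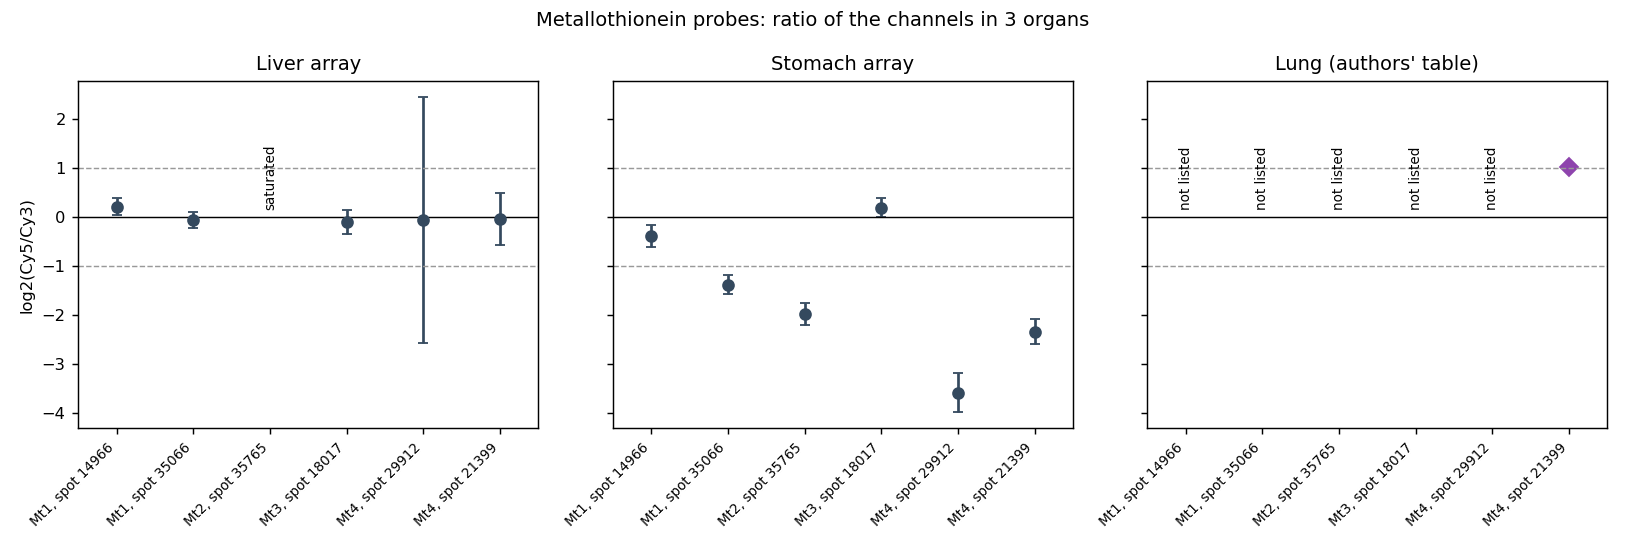
The log2 ratio of Cy5 over Cy3 at each metallothionein probe, with the scanner software's error as bars, for liver and stomach, and as the authors' deposited table lists it for lung. Dashed lines mark 2-fold; in stomach the brighter Mt1 probe, Mt2 and both Mt4 probes lie below -1, and in lung 1 Mt4 probe is listed at 1.03.

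In the lung lists of the authors' deposited table, 1 of the 6 metallothionein spots was present. The Mt4 probe at spot 21399 stood in the lung up list with a log2 ratio of 1.03, a 2.04-fold excess in Cy5, from signals of 1650 in Cy5 and 811 in Cy3. Of all gene spots, 5.51% were in the lung up list and 9.78% in the lung down list, and the list began at 2-fold, so Mt4 stood near its edge, 2188th of 2288 spots. The other Mt4 spot and the spots of Mt1, Mt2 and Mt3 were in neither lung list, which says only that they did not meet the authors' criteria. A gene is called listed below if at least 1 of its spots was in a list, so its other probes may not have been. Lung spots were joined by their number on the design. Signals listed for these 2288 lung spots and the brightness of spots with the same number on the liver array had a Pearson r of 0.599 on the log2 scale, a description across spots that share a probe design and are not independent.

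The authors' deposited table also held 4 metallothionein spots in its stomach down list, which contained 3.33% of gene spots. They were the brighter Mt1 probe at 2.61-fold, Mt2 at 3.79-fold and Mt4 at 5.79-fold and 23.4-fold, all Cy3-high. The dimmer Mt1 probe and Mt3 were in no stomach list. None of the 6 spots was in the liver lists, which held 1.25% (up) and 1.04% (down) of gene spots. Across the organs, Mt4 was thus Cy3-high in stomach and Cy5-high in lung at spot 21399, a difference that was not tested.

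The signal of each probe was also set between organs, after each channel of each array was scaled to its own 75th percentile; the arrays were dye-corrected separately, so these values compare whole hybridizations. The brighter Mt1 probe was 11.98-fold higher on the liver array than on the stomach array in Cy5 and 4.59-fold higher in Cy3. The dimmer Mt1 probe was 5.75-fold higher on the liver array in Cy5 and 3.58-fold in Cy3. Mt2 was at least 8.78-fold higher on the liver array in Cy5 and at least 3.60-fold in Cy3, since its liver spot was saturated. Over all gene spots the median difference between the arrays was 0.05 in Cy5 and 0.06 in Cy3 on the log2 scale. A log2 difference of 3 or more towards liver was reached by 1.83% of spots in Cy5 and 1.88% in Cy3. The brighter Mt1 probe (3.58) and Mt2 (at least 3.13) reached it in Cy5. The dimmer Mt1 probe in Cy5 (2.52) and both Mt1 probes in Cy3 (2.20 and 1.84) did not. Mt2 was at least 1.85 in Cy3, so its place there is not known.

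Mt3 and Mt4 had the opposite order. Mt3 was 2.10-fold higher on the stomach array in Cy5 and 1.63-fold in Cy3. Mt4 was 3.41-fold higher on the stomach array at spot 21399 in Cy5 and 19.2-fold in Cy3, and at spot 29912 it was also higher on the stomach array in both channels. No fold is given for spot 29912, whose liver signals of 84.1 in Cy5 and 139 in Cy3 were close to the negative control medians of 67.6 in Cy5 and 127 in Cy3. For both Mt1 probes the organs lay farther apart in Cy5, and for Mt4 at spot 21399 they lay farther apart in Cy3. This restates the ratios within each array and is no separate observation.

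The 10 protein-coding genes nearest to the cluster, 5 on each side, were read for comparison, and 9 were on the design. None of the 9 was past 2-fold on either array. Their log2 ratios ran from -0.20 to 0.19 in liver and from -0.89 to 0.52 in stomach. The lowest stomach value was that of Herpud1, which acts in the removal of misfolded proteins from the endoplasmic reticulum, at -0.89 (scanner error 0.18), close to the Mt1 mean. Bbs2, next to Mt4 and part of a complex that serves the primary cilium, was at -0.13 in stomach, and Nup93, a nuclear pore protein next to Mt1, was at 0.52. None of the 9 was in a lung list. Within the cluster itself Mt3, between Mt4 and Mt2, was at 0.20 in stomach.

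**Figure D3:**
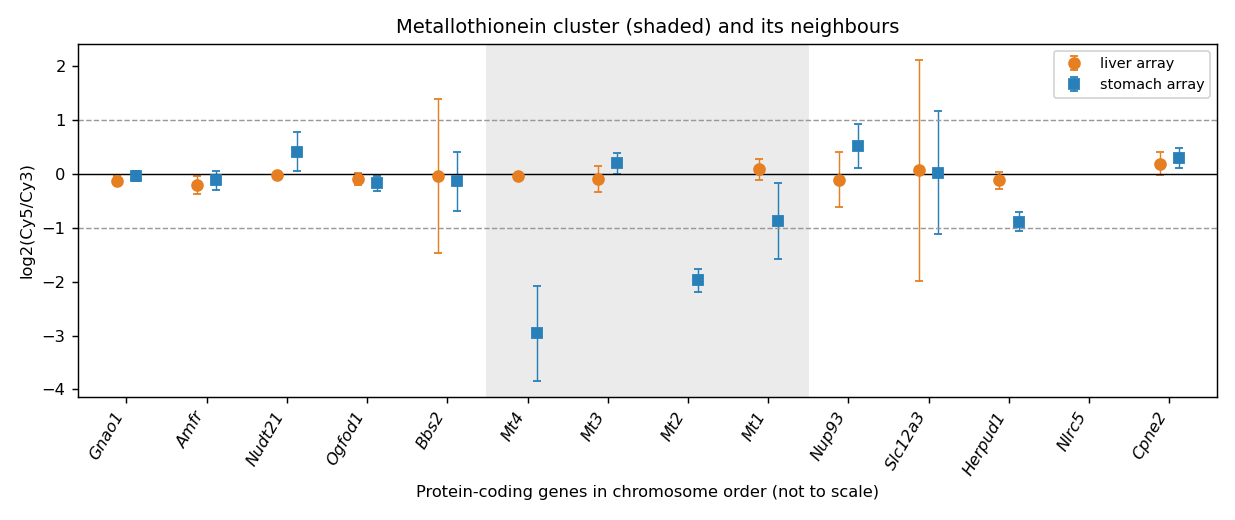
The log2 ratio of Cy5 over Cy3 of the metallothioneins and of the nearest protein-coding genes, in their order on chromosome 8, for the liver and stomach arrays, with bars for the SD of genes with several probes and for the scanner error of genes with a single probe; Nlrc5 is not on the design and Mt2 was saturated in liver. In stomach Mt4, Mt2 and Mt1 lie at -2.96, -1.97 and -0.88, while the neighbours lie between -0.89 and 0.52.

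The genes most alike in pattern were those nearest to Mt1 and Mt2 by Euclidean distance over the liver and stomach log2 ratios. The pattern was 0.09 in liver, from Mt1 alone since Mt2 was saturated, and -1.43 in stomach. Of 24763 genes compared over these 2 arrays, 16 lay within 0.1. The nearest 5 were Epn3, an epsin of endocytosis (distance 0.02), Lgals2, a galectin (0.03), Trp73, a relative of p53 (0.03), Krt6a, a keratin of stratified epithelium (0.04), and Kcnj16, a potassium channel (0.05). Trp73 had spots in both the up and the down list of lung, and the other 4 had none. With 2 arrays this likeness is a description of 2 values per gene.

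Squamous epithelium markers were mostly Cy3-high on the stomach array, as Mt4 was. Of 12 markers, all measured and well above background in both channels, 9 were at least 2-fold Cy3-high and 1 was Cy5-high. Over all genes measured there, 1.41% were Cy3-high and 0.873% Cy5-high. The list median was -1.59, against 0.001 over all genes. The lowest were Lor (loricrin, of the cornified envelope) at -4.20, Krt4 (of oesophageal and forestomach epithelium) at -3.84 and Krt10 at -3.04. Krt5 and Krt14, keratins of the basal layer, were at -2.11 and -1.61. Krt13 averaged -1.56 with an SD of 2.66 between its probes and Krt1 -1.38 with an SD of 1.94, so their places among the 9 rest on probes that lay far apart. Ivl (involucrin), another protein of the cornified envelope, was Cy5-high at 1.16, and Sprr1a was at 0.05. Median raw signals of the markers were 819.5 in Cy5 and 1120 in Cy3 in stomach, and 222.5 in Cy5 and 238 in Cy3 in liver, where none of the 12 was past 2-fold.

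In the authors' lung lists 5 of the 12 squamous markers were in the up list and none in the down list, where 6.84% of all genes had a spot in the up list and 12.4% in the down list. The 5 were Ivl at 17.0-fold, Krt13 at 6.41-fold, Sprr1a at 5.13-fold, Lor at 3.79-fold and Krt10 at 2.01-fold. Mt4 at 2.04-fold and Krt10 were close in size there. Of the 5, Lor, Krt10 and Krt13 were Cy3-high in stomach by gene mean and Cy5-high in lung, as Mt4 was, with the Krt13 probes far apart in stomach. Ivl, the largest of the 5 in lung, was Cy5-high in stomach at 1.16, and Sprr1a was at 0.05 there. Not every probe of Krt10 or of Krt13 was listed in lung. Squamous markers were not alone in these lung lists. Of 7 intestinal epithelium markers, 3 were in the up list and 0 in the down list. In the down list were 6 of 8 lung epithelium and 5 of 7 smooth muscle markers, with 0 of either in the up list. The part of squamous epithelium in the Mt4 values was not tested. Other markers also moved in stomach: 4 of 7 smooth muscle and 2 of 6 fat markers were at least 2-fold Cy3-high. There 4 of 7 intestinal epithelium markers were at least 2-fold Cy5-high. Over all genes measured in stomach, 1.41% were Cy3-high and 0.873% Cy5-high. The part of these other markers in the metallothionein values, in stomach or in lung, was not tested either.

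Genes that move metals across membranes were read beside the metallothioneins. None of the 10 zinc exporters (Slc30 family) was past 2-fold in stomach, with a median of 0.08 and a range of -0.07 to 0.22, and none of the 9 measured was in liver, with a median of -0.03. Scanner errors in stomach were 3.95 for Slc30a3, 2.91 for Slc30a10, 1.20 for Slc30a9 and 1.15 for Slc30a5. The other exporters had errors of 0.25 to 0.59 there. In liver Slc30a5, Slc30a7, Slc30a9 and Slc30a10 had errors of 1.06 to 1.49. Changes of the size of these errors could not have been seen. Slc30a1, the exporter of the plasma membrane and itself a target of Mtf1, was at -0.51 in liver (SD 0.06 between probes). In lung the authors' table listed Slc30a1 up at 3.12-fold and Slc30a7 up at 2.65-fold, and no exporter down. Not every probe of Slc30a1 or of Slc30a7 was listed. Among all genes, 6.84% had a spot in the lung up list and 12.4% in the down list. None of the 14 zinc importers (Slc39 family) was past 2-fold in either organ, with medians of -0.04 in liver and 0.07 in stomach. The same limit held for some of them. Errors were 4.58 for Slc39a5, 2.07 for Slc39a12 and 1.70 for Slc39a8 in stomach. In liver they were 3.11 for Slc39a5, 1.92 for Slc39a10 and 1.64 for Slc39a12.

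Slc39a4, the importer of dietary zinc in the gut, had the largest value among them, 0.51 in liver (scanner error 0.17) and 0.90 in stomach (scanner error 0.18). Slc39a9 was at -0.36 in liver and Slc39a6 at -0.78 in stomach. In lung the authors' table listed 3 importers up (Slc39a10 at 2.75-fold, Slc39a11 at 3.22-fold and Slc39a14 at 2.24-fold) and 1 down, Slc39a8, at 10.97-fold. Of 14 copper genes 13 were measured and none was past 2-fold, and the lowest was Cox17, a copper chaperone of mitochondria, at -0.98 in stomach. Scanner errors were 5.28 for Steap4 in stomach, and 1.52 for Atp7a and 1.01 for Steap2 in liver. The authors' lung lists held Steap2 up at 2.89-fold and Atp7a, Cp and Steap4 down at 3.48-fold, 2.86-fold and 3.23-fold. The shares of all genes with a spot in the lung lists were 6.84% (up) and 12.4% (down), for reading both the importers and the copper genes.

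Iron genes had 1 member on each side of 2-fold in stomach among 11 measured and none in liver among 12. Over all genes measured in stomach, 0.873% passed 2-fold towards Cy5 and 1.41% towards Cy3. Tfrc, the transferrin receptor, was Cy5-high in stomach at 1.29 (2.44-fold), and Hamp, the hormone hepcidin, was Cy3-high at -1.23 (2.35-fold). In liver Tfr2, a sensor of transferrin, was at -0.66 and Trf, transferrin itself, at -0.53. The list medians were -0.18 in liver and 0.03 in stomach, and without the loess curve they were 0.01 and 0.41. In lung 3 of the 12 were in the authors' up list and 3 in the down list, where 6.84% of all genes had a spot in the up list and 12.4% in the down list. Heph, a ferroxidase, was listed up at 6.04-fold, Tfr2 up at 2.68-fold and Slc40a1, the iron exporter, up at 2.65-fold. Hamp was listed down at 2.13-fold, Hfe at 2.74-fold and Trf at 2.08-fold.

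**Figure D4:**
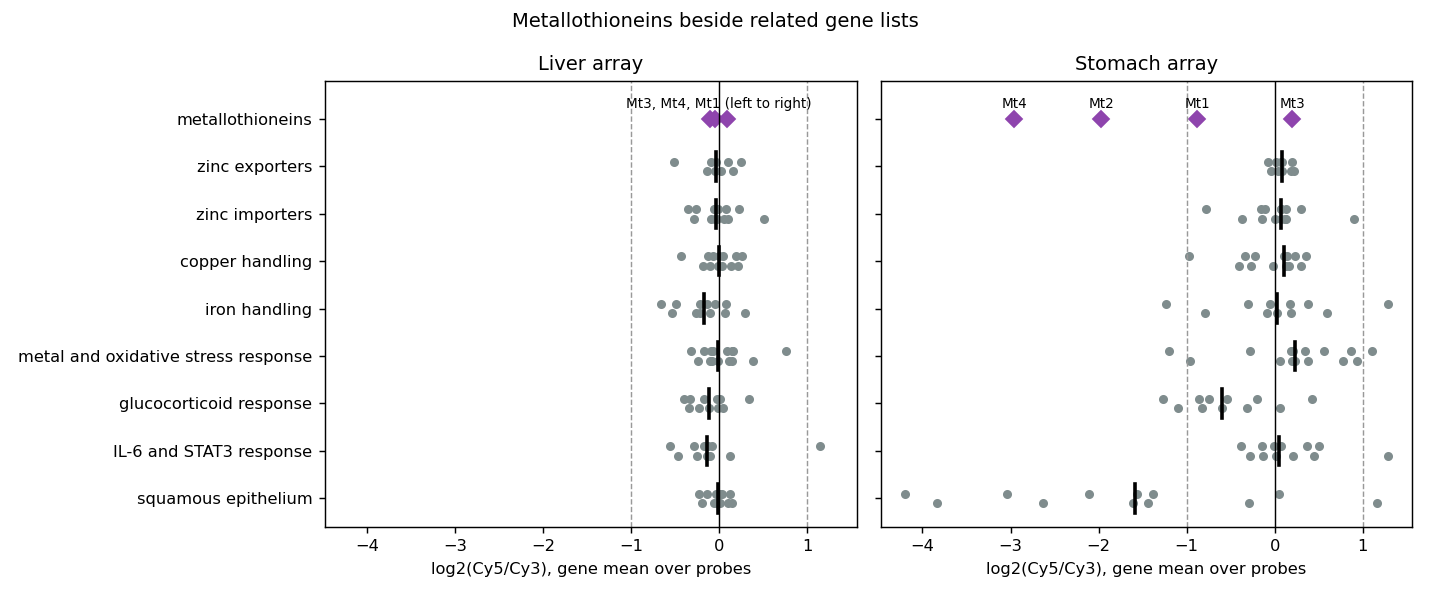
Gene means of log2 Cy5 over Cy3 for the metallothioneins, for 7 related lists and for the squamous epithelium markers on the liver and stomach arrays, with 1 point per measured gene, black bars for list medians and dashed lines at 2-fold. In stomach the squamous epithelium list has its median at -1.59 and the glucocorticoid response list at -0.60. The zinc exporters stay between -0.07 and 0.22 there, with scanner errors of up to 3.95 that are not drawn.

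Genes of the stimuli that induce Mt1 and Mt2 were read in the same way. Among 15 genes of the metal and oxidative stress response, Mtf1 was at -0.11 in liver and 0.06 in stomach. In stomach Prdx1, a peroxiredoxin, was Cy5-high at 1.102 (2.15-fold), and Cat, catalase, was Cy3-high at -1.20 (2.29-fold). For comparison, 0.873% of all stomach genes passed 2-fold towards Cy5 and 1.41% towards Cy3. In stomach 12 of the 15 were above 0. The list median was 0.23, against 0.001 over all stomach genes. With the scanner software's ratio the list median was 0.53, against 0.015 over all stomach genes. In liver none of the 15 was past 2-fold, the largest being Nqo1, a quinone reductase, at 0.75. The authors' table listed Mtf1 up in lung at 2.10-fold, as well as Srxn1, Gsr and Slc7a11, while Cat at 6.35-fold, Sod1 at 3.95-fold and Nfe2l2 at 2.18-fold were listed down. Not every probe of Mtf1, Slc7a11, Sod1 or Nfe2l2 was listed, and Mtf1 stood near the edge of its list. Among all genes, 6.84% had a spot in the lung up list and 12.4% in the lung down list.

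Of 11 measured genes of the glucocorticoid response, 9 were below 0 in stomach. The list median was -0.60, against 0.001 over all genes measured in stomach. At least 2-fold Cy3-high were 2 of the 11, against 1.41% of all genes measured there. The 2 were Cebpd, a transcription factor, at -1.27 (2.41-fold) and Tsc22d3, the glucocorticoid-induced leucine zipper, at -1.09 (2.14-fold, SD 0.40 between probes). Without the loess curve the list median was -0.21. In liver none was past 2-fold, the median was -0.11 and the largest values were those of Pck1 at -0.40 and Klf9 at -0.35. In lung 4 of the list were in the authors' down list (Cebpd, Dusp1, Tsc22d3 and Per1) and 3 in the up list (Cdkn1a, Fkbp5 and Sgk1), where 12.4% of all genes had a spot in the down list and 6.84% in the up list.

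In the interleukin-6 and Stat3 list, Lcn2, a siderophore-binding protein of the acute phase, was the only gene of the 7 related lists past 2-fold in liver, at 1.14 (2.21-fold Cy5-high), beside Hp, haptoglobin, at -0.55. The list medians were -0.14 in liver and 0.04 in stomach. In stomach Saa3, an acute-phase protein, was at least 2.44-fold Cy5-high, as its Cy3 signal was not well above background, and Saa1 was at 0.50. The authors' table had Fgb up and Hp, Il6st and Stat3 down in lung, where 6.84% of all genes had a spot in the up list and 12.4% in the down list. Over the 7 lists together, 1 of 85 measured genes was past 2-fold in liver, where 0.152% of all genes were so towards Cy5 and 0.0703% towards Cy3. In stomach 7 of 86 were past 2-fold, 3 towards Cy5 and 4 towards Cy3, where 0.873% of all genes were so towards Cy5 and 1.41% towards Cy3.

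**Figure D5:**
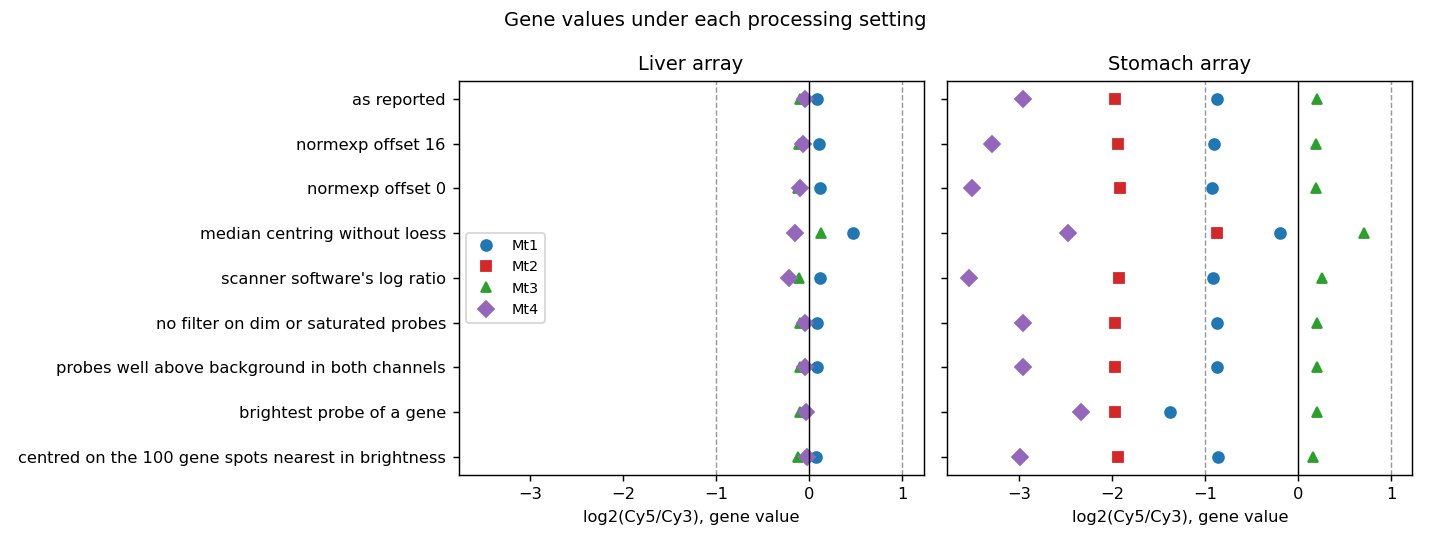
Gene values of the metallothioneins under each way of processing the arrays, as log2 of Cy5 over Cy3, with dashed lines at 2-fold. Mt4 in stomach stays between -3.54 and -2.34, while Mt2 moves to -0.88 when the loess curve is left out and Mt1 to -1.38 when only its brightest probe is read.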

How the data were processed

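RNA (500 ng per tissue) was amplified before coupling to Cy3 or Cy5, per the labels' protocols. The submitters' processing notes name Agilent Feature Extraction 8.5.1.1. Per the file headers, the deposited intensity columns hold each spot's mean signal and median local background, not normalized, and processed intensities corrected for background and dye. The deposited log10 ratio is Cy5 over Cy3, and the deposited p-value tests it under the scanner's error model. The authors' deposited table gives log10 ratios in 6 lists, and its liver and stomach values equalled the scanner's within 0.002. Scanner values of the lung array were not analysed here.

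From the scanner files, limma 3.58.1 (R 4.3.3) was used for normexp background correction (offset 50) and for a loess curve per array, in which control spots had weight 0. Control and outlier spots, spots saturated in both channels and spots not well above background in either channel were left out. A gene's value was the mean log2 ratio over its probes. Later steps used Python 3.11.15, numpy 2.4.6 and pandas 2.3.3. The normalization was also run on data simulated from the liver array with a constant dye difference. That simulation held no trend of the dye difference with brightness, so it cannot show how well the loess curve worked on the stomach array. Symbols came from RefSeq's GRCm38.p6 table: of 41171 probes on the liver array 22943 were named by accession, 6658 by symbol, 3096 by synonym and 6 by the scanner's name, and 8468 kept the file's name.

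The members, the lists and the rules were chosen with earlier results of these data known. The named genes were all metallothioneins, list members past 2-fold or with the 2 largest values per array, 5 neighbours on each side and the 5 genes most alike to the mean of Mt1 and Mt2, for which Mt1 alone stood in liver. Marker genes and the lung values of list members were named beside these after their values were seen. The alternatives were other offsets (16 and 0), median centring, the scanner's ratio, other probe filters and the brightest probe. With 1 array per organ there is no replicate, so precision is limited by the number of arrays.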

Additional observations from a re-analysis of the deposited data

Results flagged for a closer look

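Mt4 differed in direction between organs. In lung the authors' deposited table listed 1 Mt4 probe at a log2 ratio of 1.03 (Cy5-high), while on the stomach array the mean of the Mt4 probes was -2.96 (Cy3-high). The same probe, at spot 21399, was at -2.34 on the stomach array as processed here. The authors' table, from which the lung value comes, had that probe at -2.53 in stomach. The references also differed: lung tumour was set beside wild-type lung, and stomach tumour beside nontumour tissue of a transgenic mouse. The lung value stood at the edge of its list and the second Mt4 spot was not listed there. With 1 array per organ the difference was not tested.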

How the results depend on the processing

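No metallothionein past 2-fold changed sign under the alternatives, which were run per gene for the metallothioneins alone. Over 8 alternatives, 1 of them (centring on spots of like brightness) added after the data were seen, stomach Mt4 ran from -3.54 to -2.34, Mt2 from -1.97 to -0.88, Mt1 from -1.38 to -0.20 and Mt3 from 0.16 to 0.71, and in liver Mt1 ran from -0.05 to 0.47, Mt3 from -0.12 to 0.13 and Mt4 from -0.22 to -0.03. Median centring without loess gave 0.47 for Mt1 in liver, and -0.88 for Mt2 and 0.71 for Mt3 in stomach, which differ from the reported values by the curve's shift at each spot. Counts of genes past 2-fold moved most. In liver, 39 Cy5-high genes became 71 (offset 16), 440 (offset 0), 110 (median centring) and 541 (scanner ratio), and 18 Cy3-high genes became 57, 278, 7 and 420 under the same settings. In stomach, 221 Cy5-high genes became 358, 867, 1017 and 1093, and 358 Cy3-high genes became 895 (offset 0), 235 (median centring) and 1049 (scanner ratio). The Cy5-high share of these genes was 68.4% in liver, against 55.5% (offset 16), 94.0% (median centring) and 56.3% (scanner ratio), and 38.2% in stomach, against 49.2% (offset 0), 81.2% (median centring) and 51.0% (scanner ratio). Median centring turned the liver list medians above 0, to 0.01 for iron, 0.28 for metal and oxidative stress, 0.10 for glucocorticoid and 0.09 for interleukin-6 and Stat3 genes, and in stomach gave 0.41 for iron and -0.21 for glucocorticoid genes. The stomach median of metal and oxidative stress genes was 0.53 with the scanner ratio. Related genes past 2-fold were 2 in liver with the scanner ratio and 12 in stomach with median centring. The cause of these moves in counts was not tested. Matching lung rows by gene name was not run, since the table was joined by spot number and gives no gene name. No paired analysis was possible because each organ had 1 array and no test was made. Dim Mt4 spots in liver and the saturated Mt2 spot limit what the liver array can show.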

Other observations

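A further probe, LOC574530, is described in the array files as metallothionein 1K and is not among the 4 genes. It had a raw signal of 513 in Cy5 and 403 in Cy3 on the liver array, and 353 in Cy5 and 275 in Cy3 on the stomach array. Its log2 ratio was 0.03 in liver (scanner error 0.20) and -0.10 in stomach (scanner error 0.26), and it was in no lung list.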
